A study of Mus musculus with 3 samples.

Results

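The RNA-seq libraries of c2c12 myoblasts on GelMA-PSS and on plain GelMA were compared with each other, to ask which transcripts differ when the heparin-mimicking polymer is present in an otherwise like hydrogel. These are 2 of the 3 libraries of the series, and they were chosen by the substrate named in their labels. Of 23238 gene symbols, the 13050 with a CPM (counts scaled by the total and the composition of each library) of 1 or more on either hydrogel were compared. The c2c12 line is an immortalized line of mouse myoblasts. Both cultures were kept for 2 days in myogenic induction medium with 2% horse serum. The GelMA group was grown on methacrylated gelatin at 15% w/v, and the GelMA-PSS group on the same 15% w/v GelMA co-polymerized with 1% w/v of PSS, a sulfonated polymer used as a synthetic heparin. The third library came from cells on a tissue culture plate (TCP) and is given here only as a level beside the hydrogels.

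Myoblasts carry a program of myogenic regulatory factors. MyoD and Myf5 mark the committed precursor, myogenin marks entry into differentiation, and the sarcomere is then built from myosin heavy and light chains, actin, troponins and the giant proteins titin and nebulin. Heparin and the heparan sulfate chains of cell surface and matrix proteoglycans bind many growth factors, FGFs among them, and set how these reach their receptors. Differentiating myoblasts also leave the cell cycle before they fuse into myotubes.

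Each hydrogel is represented by 1 library, so that no difference below has a replicate check, no p-value was computed, and a difference between substrates cannot be told apart from one between cultures or between library preparations. The total counts were 87071144 for GelMA and 192171443 for GelMA-PSS, with 119799095 for TCP, and 3 counts correspond to a CPM of 0.0330, 0.0166 and 0.0246. The markers fixed for the line were present in both hydrogel libraries: Acta1, Des, Itga7, Chrna1, Myog, Cdh15, Myh3 and Myod1 had a CPM above 100 on either hydrogel, and Myf5 had 19.5 on GelMA and 36.5 on GelMA-PSS. Of the other cell types looked for, the summed level of 12 macrophage markers was 6.57 on GelMA and 6.38 on GelMA-PSS, that of 10 endothelial markers 7.08 and 6.48, that of 9 adipocyte markers 14.6 and 17.3, and that of 10 epithelial markers 14.3 and 12.4. The adipocyte genes Adipoq and Plin1 and the macrophage gene Adgre1 were at or under 3 counts in both. The sum of 10 neural markers was 97.9 and 133, most of it from Tubb3, and that of 10 fibroblast markers, several of which c2c12 cells also express, was 6299 and 7703. In bulk RNA, fewer cells of a type and less RNA per cell cannot be told apart.

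The libraries were alike for most genes. Across the 13050 genes the Spearman correlation of their CPM was 0.970, which is a description across genes that share the same 2 libraries. The median log2 ratio of GelMA-PSS over GelMA, taken on log2(CPM + 1), was 0.04, with quartiles at -0.30 and 0.34, and 78.0% of genes lay within 1.5-fold. On this scale, ratios of weakly expressed genes are drawn towards 0. A gene is called higher or lower here when the ratio passed 2-fold, which was the case for 233 genes higher on GelMA-PSS (1.79% of the genes compared) and 307 lower (2.35%). Past 4-fold there were 15 higher and 14 lower. For comparison, 0.715% of genes were called higher and 0.3% lower on GelMA than on TCP. That comparison shares the GelMA library. With CPM of the total counts and no further factor, the median over all genes was -0.10 in place of 0.04, and the split was 120 higher to 506 lower.

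**Figure D1:**
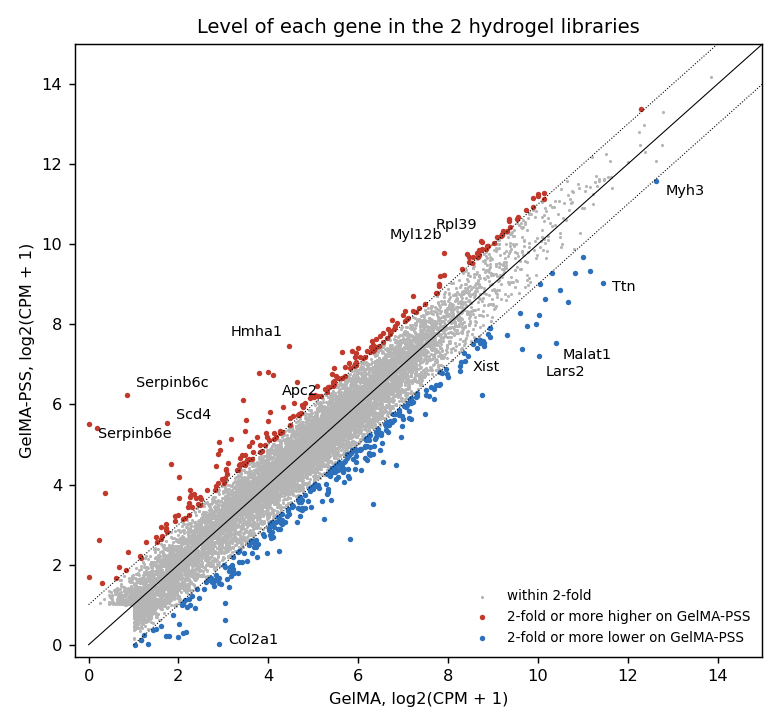
Level of each gene on GelMA (x axis) and on GelMA-PSS (y axis), both as log2(CPM + 1), with 1 point per gene. The solid line marks equal levels and the dotted lines 2-fold; 233 red points lie above and 307 blue points below, with the Serpinb6 genes and Scd4 far above the line at low GelMA levels and Malat1, Lars2 and Ttn far below it at high levels.

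Transcript length ran with the ratio. Over the 12936 genes with a length, Spearman's rho between the log2 ratio and transcript length was -0.66, against 0.21 for GelMA over TCP, while it was -0.01 with GC content and -0.01 with the level on GelMA. Among 12220 protein-coding genes, rho was -0.62 with the length of the coding sequence and -0.38 with that of the 3′ UTR. When genes were split by length into 10 equal groups, in that with the shortest transcripts (median 821 bases) the median ratio was 0.58, with 132 genes called higher and 10 lower. In that with the longest it was -0.62, with 3 higher and 205 lower. The median transcript had 936 bases among the genes higher on GelMA-PSS and 8245 among the genes lower. For this reason a ratio from which a smooth fit on transcript length was subtracted, named the length-corrected ratio, is given below beside most calls. By it 0.819% of genes were called higher and 1.27% lower, and 56 and 62 of these were also called without the correction. What gave the libraries their different relation to length was not tested.

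**Figure D2:**
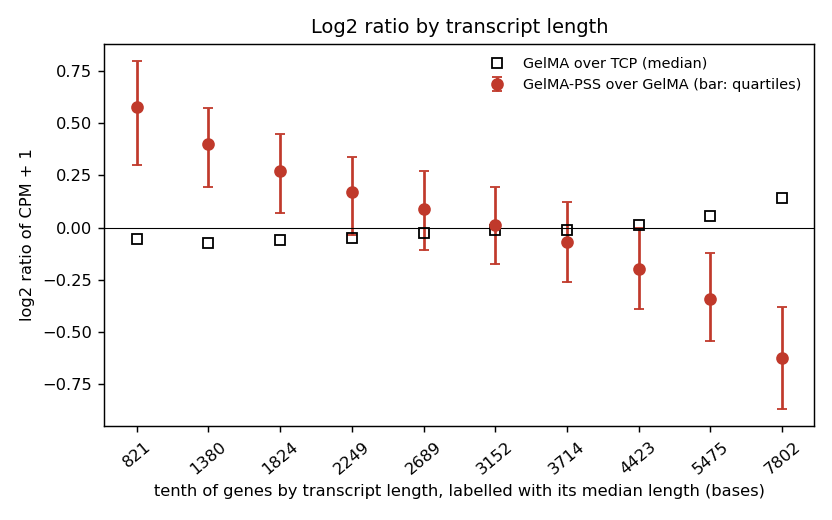
Median log2 ratio (y axis) in each of 10 equal groups of genes by transcript length (x axis, labelled with the median length of the group in bases), for GelMA-PSS over GelMA (circles, bars from the lower to the upper quartile) and for GelMA over TCP (squares). The circles go down from 0.58 in the shortest group to -0.62 in the longest, while the squares stay between -0.07 and 0.14.

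The largest ratios included copies of the Serpinb6 genes, which encode clade B serpins, intracellular inhibitors of serine proteases. Serpinb6e, at 33832345 to 33843408 of chromosome 13 (GRCm38), had 8150 counts and a CPM of 45.0 on GelMA-PSS, 0 counts on GelMA and a CPM of 0.0246 on TCP. Against the floor of 3 counts in the GelMA library it was at least 1363-fold higher. Its neighbour Serpinb6c, at 33879816 to 33905708 of the same chromosome 13, had a CPM of 74.96 on GelMA-PSS against 0.803 on GelMA, with 1.77 on TCP. Both genes were near or below the CPM limit on the other substrates and well above it on GelMA-PSS. Serpinb6a, the abundant member of the group, had a CPM of 1053 on GelMA-PSS against 521 on GelMA, with 536 on TCP, a log2 ratio of 1.01, and Serpinb6b had 43.7, 24.3 and 19.7, a log2 ratio of 0.82. Near them on chromosome 13, the noncoding 4930447K03Rik had a CPM of 41.4 on GelMA-PSS and 23.7 on TCP, but 12 counts and 0.132 on GelMA, so that for this gene GelMA was the library that stood low. Of 14 clade B serpins compared, 3 were called higher and 0 lower, with a median of 0.48. After the length correction 2 were called, and Serpinb6a was at 0.66. Serpinb6 copies are close paralogs, and reads could have been split among them.

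Stearoyl-CoA desaturases, which make monounsaturated fatty acids, split by member. Scd4 had a CPM of 45.6 on GelMA-PSS against 2.38 on GelMA, with 1.81 on TCP, a log2 ratio of 3.79, and Scd3 had 32.3, 11.4 and 8.38, a log2 ratio of 1.42. The abundant members went slightly the other way in value: Scd1 had 461 on GelMA-PSS and 563 on GelMA, and Scd2 had 844 and 1005, with log2 ratios of -0.29 and -0.25 that lay near 0 after the length correction (-0.03 and 0.09). The 4 genes lie side by side on chromosome 19 and are paralogs too. Of the 42 genes compared for cholesterol and fatty acid synthesis, Scd3 and Scd4 were the 2 called. Fasn, the fatty acid synthase, and Acaca, which supplies it with malonyl-CoA, had log2 ratios of -0.82 and -0.80. Their transcripts have 10050 and 9513 bases, and the corrected ratio of Acaca was -0.03. The windows around the letters TTTAAA upstream of Scd3 and Scd4 are printed because they are the called members. The RefSeq sequences (GRCm38.p6) are given 5′ to 3′ with TTTAAA in capitals, 44 and 30 bases before the annotated start.
Scd3, chr19:44203233-44203260, plus strand: cagccagagccTTTAAAtatgctgcttg
Scd4, chr19:44333285-44333312, plus strand: tctacatacccTTTAAAtcctgtgcctg
These letters, which read the same on both strands, were picked after the sequences were seen. They occur in the 60 bases before the start in 2.83% of 27025 windows, with 1 window per gene. Scd1 and Scd2 had no window in the table used.

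Class I genes of the major histocompatibility complex, which present peptides at the cell surface, were higher at several loci of chromosome 17. The list of MHC class I and antigen processing had 33 genes compared, with 7 called higher, 0 lower and 29 above 0, and its median was 0.61, or 0.26 after the length correction. The noncoding 2410017I17Rik and its neighbour Gm8909 had CPM values of 12.9 and 21.9 on GelMA-PSS, 0.297 and 2.55 on GelMA and 0.287 and 2.54 on TCP. H2-Q1 had a CPM of 119.7 on GelMA-PSS against 42.9 on GelMA, with 49.5 on TCP. Also called were H2-Q2, H2-Q7, H2-Q8 and H2-D1, with log2 ratios of 1.47, 1.09, 1.05 and 1.01. With length corrected for, 4 genes were called, which were 2410017I17Rik, Gm8909, H2-Q1 and H2-Q2 (3.21, 2.31, 1.24 and 1.03). H2-Q7 and H2-D1 were at 0.73 and 0.81, and H2-Q8 had no transcript length and so no corrected ratio. Of the list genes with a corrected ratio, 23 were above 0 and 7 below. The H2 genes and Gm8909 are paralogs, and reads could be shared among them. Of 36 interferon-stimulated genes, 1 was called, Ifitm1, with a CPM of 49.3 on GelMA-PSS and 21.4 on GelMA, and it was not called after the length correction (0.60).

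A run of genes on chromosome 10 stood above the rest. Hmha1 had a CPM of 176 on GelMA-PSS against 21.01 on GelMA, with 54.7 on TCP. Plk5 had 109.6, 12.9 and 34.2 in the same order, and Pcsk4, a proprotein convertase, 112, 14.8 and 36.8. Grin3b, an NMDA receptor subunit, and Apc2, a relative of the Wnt regulator Apc, had log2 ratios of 2.67 and 2.62, and Efna2 and Reep6 of 2.15 and 2.10. In each of Hmha1, Plk5, Pcsk4, Grin3b and Apc2 the level on TCP lay between those of the hydrogels. Of 33 neighbours of Apc2 compared, 12 were called higher and 0 lower. By the length-corrected ratio 12 were called as well, Wdr18 (0.98 before, 1.09 after) among these only. These neighbours were listed with their values known. Grin3b overlaps Tmem259 and Apc2 overlaps 2310011J03Rik on the opposite strand, and the use of strand in the counting is not stated, so that such reads cannot be told apart.

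**Figure D3:**
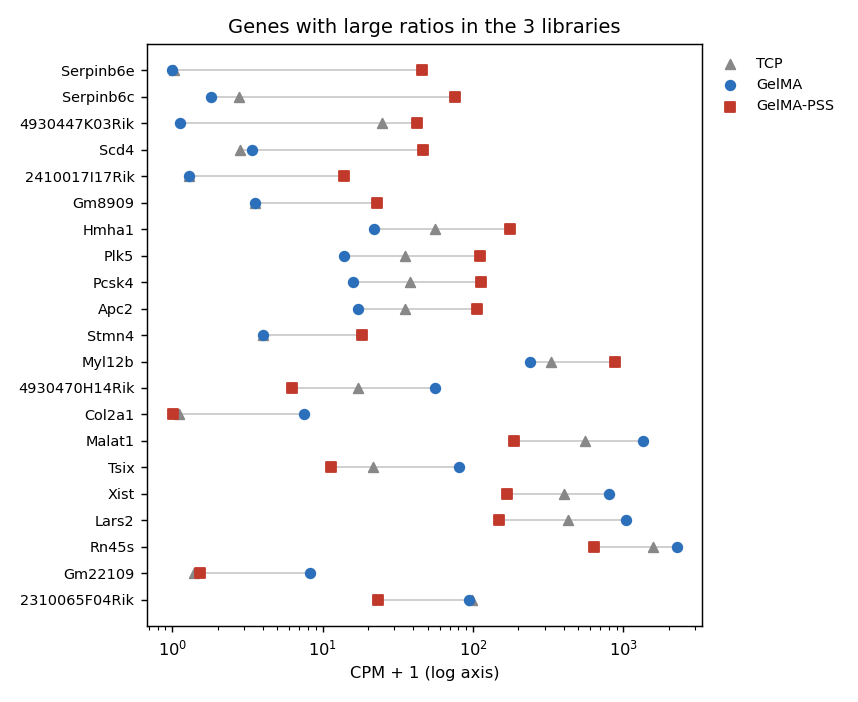
CPM + 1 on a log axis (x axis) of 21 genes with large ratios, with TCP as triangles, GelMA as circles and GelMA-PSS as squares, 1 library each. Serpinb6e, Serpinb6c and Scd4 are high in the GelMA-PSS library alone, the chromosome 10 genes Hmha1, Plk5, Pcsk4 and Apc2 are ordered GelMA, TCP, GelMA-PSS, and Malat1, Tsix, Xist, Lars2 and Rn45s are ordered GelMA-PSS, TCP, GelMA.

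Several small families were higher. Stathmins, which bind tubulin dimers and are best known from neurons, were higher: Stmn4 had a CPM of 17.3 on GelMA-PSS against 3.02 on GelMA, with 3.00 on TCP, Stmn2 had 158, 49.0 and 33.0, and Stmn1 had 131, 72.3 and 61.1. Gap43, a growth cone protein, had 54.8, 15.4 and 4.67, and Nefl, the light neurofilament chain, 61.0, 26.5 and 4.67, so that in both GelMA already lay above TCP. Myl12b and Myl12a, the regulatory light chains of nonmuscle myosin II, had CPM values of 873 and 2342 on GelMA-PSS against 238 and 1020.3 on GelMA. Of 10 S100 calcium-binding proteins compared, 6 were called higher and all were above 0, with S100a4 at 2442 against 1022, S100a6 at 1543 against 650.3 and S100a10, a partner of annexin A2, at 589 against 226.5. The S100 transcripts are short, and the median of the family went from 1.10 to 0.44 with the length correction. Of 6 Ly6 surface proteins, 5 were called higher. The stem cell antigen gene Ly6a had a CPM of 1071 on GelMA-PSS against 431 on GelMA, with 296 on TCP. The prolactin-like genes Prl2c2, Prl2c3 and Prl2c4 were called higher, with log2 ratios of 1.62, 1.84 and 1.60, as were the 4 copies of the dynein light chain Dynlt1 (1.04 to 1.16). With length corrected for, Stmn4, Stmn2, Gap43, Nefl and Myl12b were past 2-fold (1.76, 1.46, 1.38, 1.20 and 1.68), while Myl12a and Ly6a were not (0.96 and 0.77). Ly6, Prl2c and Dynlt1 genes are paralogs with like sequences. These families, and Gap43 and Nefl, were chosen after their values were seen.

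Myo1f, a myosin of blood cells, had 0 counts on GelMA and 406 on GelMA-PSS, so that it was at least 67.9-fold higher against 3 counts on GelMA, at a CPM of 2.24. Reps2, with a transcript of 7630 bases, had a CPM of 11.6 on GelMA-PSS and 3.05 on GelMA, and it was 1 of 24 genes called higher whose transcript was longer than the median. Scd4, Scd3, Myo1f, Hmha1, Grin3b and Apc2 were among these 24 as well.

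Sarcomeric myosin heavy chains were lower as a group. All 10 had ratios below 0 and 8 were called lower, with a median of -1.07. Myh3, the embryonic heavy chain and the most abundant here, had a CPM of 3037 on GelMA-PSS against 6355 on GelMA, with 10182 on TCP. The adult fast chains Myh2, Myh1 and Myh4 had 211, 511 and 69.0 on GelMA-PSS and 634, 1065 and 207 on GelMA. Myh8, the perinatal chain, had 193 against 394. The cardiac chains Myh6 and Myh7 had log2 ratios of -1.55 and -1.08. In each of these the order was GelMA-PSS, GelMA, TCP from low to high. Their transcripts are of nearly the same length in bases, from 6016 in Myh4 to 6230 in Myh7. By the corrected ratio, the median was -0.65, with Myh2, Myh4 and Myh6 still past 2-fold (-1.16, -1.16 and -1.13). Mhrt, antisense to Myh7 and next to Myh6, had a log2 ratio of -1.15. It overlaps Myh7, and reads of Mhrt and Myh7 cannot be told apart without strand. The noncoding 2310065F04Rik, which lies between the Myh3 and Myh2 genes at 67112461 to 67120080 of chromosome 11, reached a CPM of 22.4 on GelMA-PSS against 93.6 on GelMA, with 97.3 on TCP. Its transcript has 2724 bases, and its log2 ratio was -2.01, or -2.09 after the correction.

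Of the giant genes of the muscle fibre, Ttn, Neb and Ryr1 had uncorrected ratios below those of all heavy chains. Ryr3, with 15410 bases, was at -1.39, above Myh2 at -1.58. Dmd, with 14910 bases, was at -0.71, but its CPM was 0.375 on GelMA-PSS against 1.25 on GelMA. At such low levels the pseudocount draws the ratio towards 0. The plain ratio of CPM, GelMA-PSS over GelMA, was 0.299 for Dmd and 0.333 for Myh2. Ttn, which encodes titin, the molecular spring between Z disc and M band, had a CPM of 522 on GelMA-PSS against 2808 on GelMA, with 3073 on TCP, a log2 ratio of -2.42. Its transcript of 106824 bases lies at the end of the range of lengths, where the correction gave 0.30. Neb, encoding nebulin, had 374, 1635 and 1897. Ryr1, the calcium release channel, had 248, 868 and 1023. By the corrected ratio, Neb and Ryr1 were at -0.63 and -0.63, against a heavy chain median of -0.65.

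As a group, short sarcomere genes did not share this before the length correction. Mylpf, the fast regulatory light chain, had a CPM of 7158 on GelMA-PSS against 4853 on GelMA, with 6926 on TCP. Myl1 had 2393, 1637 and 2539. Tnni2 and Tnnc1, the inhibitory and the calcium-binding troponin, had 908 and 2569 on GelMA-PSS against 666 and 2131 on GelMA. Acta1, skeletal actin, had 5059.6 against 5379. Myl4, with 943 bases, had 1564 against 1574, and Myl2, with 729 bases, 8.21 against 12.5. None of these passed 2-fold before the correction. After it Myl4 was at -0.56 and Myl2 at -1.17, past 2-fold. Of the 6 muscle light chain genes compared, 3 were above 0 and 3 below before the correction. The 20 thin filament genes had a median of 0.07, or -0.08 with CPM of the total counts, with Neb as the single gene called. The lists of heavy chains, light chains, thin filament, Z disc and M band, excitation-contraction coupling and endplate held 117 genes together. Of these, the 60 with transcripts above the median length had a median of -0.75, with 21 called lower, and the 57 with shorter transcripts had a median of 0.02, with 0 called. After the length correction both were below 0 in the median, at -0.40 and -0.29, and 49 of 60 longer and 51 of 57 shorter genes were below 0, against 49.6% of all genes. By the corrected ratio 6 of the 117 were called lower and 0 higher.

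**Figure D4:**
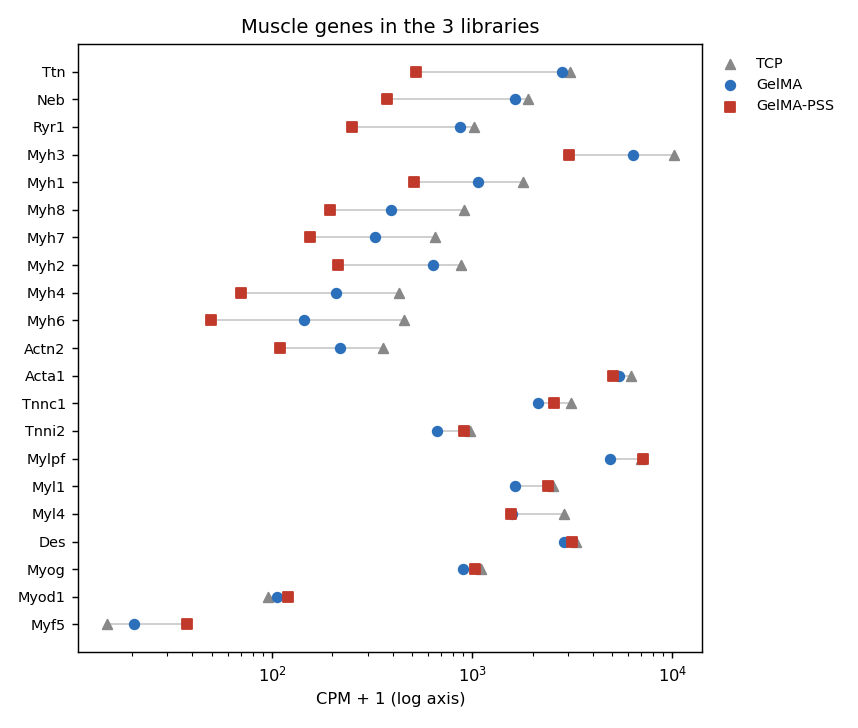
CPM + 1 on a log axis (x axis) of 21 muscle genes on TCP (triangles), GelMA (circles) and GelMA-PSS (squares), 1 library each. Ttn, Neb, Ryr1 and the Myh genes lie lowest on GelMA-PSS, whereas Mylpf, Myl1, Tnni2, Des, Myog and Myod1 lie as high on GelMA-PSS as on GelMA or higher.

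Beyond the giant genes, Z disc and M band genes had a median of -0.40, with 4 of 38 called lower and 0 higher. Mybpc1, slow myosin binding protein C, had a CPM of 9.57 on GelMA-PSS and 25.2 on GelMA, and Actn2, which encodes the Z disc protein α-actinin-2, had 109 and 217. Before the length correction Mybpc1 was called (-1.31) and Actn2 was just short of 2-fold (-0.99). After it, with transcripts of 3752 and 3013 bases, both were past 2-fold (-1.22 and -1.02), and they were the 2 genes called on the list. Of 29 genes of excitation-contraction coupling, 4 were called lower and 0 higher. Scn4a, the muscle sodium channel, had a CPM of 37.99 on GelMA-PSS and 90.7 on GelMA, and Cacna1s, the voltage sensor, 182 and 375. With length corrected for, 0 genes of this list were called, with Scn4a at -0.75 and Cacna1s at -0.60. At the endplate, Musk, the receptor kinase that clusters acetylcholine receptors, had 36.9 and 75.6, and its partner Lrp4 had 109 and 232. On the endplate list 3 of 14 genes were called lower and 0 higher, but 0 after the length correction, with Musk at -0.98 and Lrp4 at -0.46.

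Myod1, Myog, Des and Myf5 had ratios within 2-fold. Myod1 had a CPM of 119 on GelMA-PSS against 105 on GelMA, with 94.3 on TCP, Myog had 1037, 895 and 1099.9, and Des, the muscle intermediate filament, 3154, 2863 and 3299. Their log2 ratios were 0.19, 0.21 and 0.14. Myf5 had 36.5, 19.5 and 13.9, a log2 ratio of 0.87. Of 31 myogenic transcription factors and cofactors, 3 were called lower and 0 higher: Nfix, which acts in the switch to fetal muscle, had a CPM of 82.7 on GelMA-PSS and 205 on GelMA, Hdac4 had 9.65 and 24.5, and Mef2c, a partner of the myogenic factors, had 81.0 and 181. With transcripts of 5476, 8100 and 6277 bases, none of Nfix, Hdac4 and Mef2c was past 2-fold after the length correction (-0.96, -0.62 and -0.70). The median of the list was -0.38, or -0.26 corrected, and by the corrected ratio Mef2d and Pax7 were the 2 genes called (-1.09 and -1.01). On the list of genes known to hold back the myogenic factors, 10 of 14 were above 0 and 4 below. Id3, which binds their E protein partners, had 62.1 on GelMA-PSS against 25.99 on GelMA, with 15.2 on TCP, and Msc, encoding musculin, had 8.26, 2.77 and 1.75. They were the 2 genes called on that list, with 0 lower and a median of 0.29, or 0.24 corrected. With length corrected for, Msc was at 1.00 and Id3 at 0.79, so that 1 call was left. Id1 and Hey1 on the same list had log2 ratios of 0.79 and 0.73, and Bhlhe40 and Zeb1 of -0.59 and -0.55. Pax7, the marker of satellite cells, had 6.01 on GelMA-PSS and 10.5 on GelMA.

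Among 55 genes of myoblast fusion, 2 were called lower and 0 higher, with a median of -0.14. Adam12, a membrane protease, and Trio, a guanine nucleotide exchange factor, had CPM values of 2.11 and 113 on GelMA-PSS and 7.48 and 305 on GelMA. Their transcripts have 7675 and 11495 bases, and neither was called after the length correction (-0.85 and -0.50), which brought the median of the list to -0.05. Tmem8c, which encodes the fusion protein myomaker, had 669.8, 773 and 1029.8 on GelMA-PSS, GelMA and TCP, a log2 ratio of -0.21.

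Genes of G2 and M phase and of DNA replication lay higher. The 31 genes of cell cycle exit had 17 above 0 and 14 below, with a median of 0.06, or -0.02 after the length correction. Of 67 genes of G2 and M phase, 56 were above 0, against 53.3% of all genes, with 3 called higher, 0 lower and a median of 0.35. The median was 0.29 after the length correction, with 63 of 67 above 0. For GelMA over TCP the median of the G2 and M phase list was 0.46, so that it was higher on plain GelMA than on TCP too. Pttg1, the securin that holds back chromosome separation, had a CPM of 30.5 on GelMA-PSS against 13.2 on GelMA, with 9.25 on TCP. Cks2 and Cdkn3, which act on cyclin-dependent kinases, had 51.2 and 5.18 on GelMA-PSS, 22.4 and 2.04 on GelMA. Cdk1 itself had 88.9, 44.5 and 31.4, a log2 ratio of 0.98. By the corrected ratio, Pttg1, Cks2 and Cdkn3 were not called (0.61, 0.52 and 0.47), while Cdk1 and the checkpoint gene Mad2l1 were past 2-fold (1.17 and 1.28). The value of Cdk1 depends on the transcript of 4375 bases chosen here. Genes of DNA replication had 50 of 62 above 0 and a median of 0.22, with Gmnn, the licensing inhibitor geminin, as the gene called (19.6 against 9.05, with a corrected ratio of 0.55). Many G2 and M phase promoters carry a cell cycle homology region, whose letters are TTTGAA. Windows around it are printed for members of the list with high ratios, from RefSeq (GRCm38.p6), 5′ to 3′ along the gene, with TTTGAA or its reverse complement TTCAAA in capitals.
Cdkn3, chr14:46760419-46760446, plus strand: tccgcgcgtctTTCAAAgacttcctctg
Cdk1, chr10:69352967-69352994, minus strand: tgattggctccTTTGAAcgtctacgtgc
Cdk1, chr10:69352911-69352938, minus strand: accgcggcgagTTTGAAactgctggcac
Ube2c, chr2:164769889-164769916, plus strand: gagggttgcaaTTCAAAcgcgggcggcg
The matches of Cdk1 lie 71 and 15 bases before the annotated start, that of Ube2c 29 and that of Cdkn3 111. On either strand of the 300 bases around the start, 37 of 56 members with a window held these letters (66.1%), against 18.1% of 27025 windows. A match is a description of the letters and not a site shown to be used.

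Genes of protein synthesis and energy metabolism with short transcripts were higher as whole groups. All 79 cytosolic ribosomal protein genes were above 0, with 27 called higher and a median of 0.95. Rpl39 had a CPM of 1084 on GelMA-PSS against 422 on GelMA, with 383 on TCP, and Rpl34 and Rps27 had 1596 and 235 on GelMA-PSS and 658 and 100.4 on GelMA. The length correction brought the median to 0.35, with all 79 still above 0 and 2 called. Among the called was Rps15a (1.32), for which a transcript of 5179 bases was chosen, against a list median of 860. The 77 mitochondrial ribosomal proteins were all above 0 as well, with 3 called and a median of 0.60 that became 0.17. Mrpl20 had a CPM of 54.2 on GelMA-PSS and 25.7 on GelMA. Respiratory complex I genes had a median of 0.70 with 0 of 44 called, and ATP synthase genes a median of 0.70 with 2 of 18 called, Atp5k (225 against 104) being the higher of these. After the correction their medians were 0.11 and 0.22, and no ATP synthase gene was called. The letters CCGGAAG, a core bound by ETS factors, were found in 23 of the 58 cytosolic (39.7%) and 24 of the 68 mitochondrial (35.3%) ribosomal protein genes with a window, on either strand, against 9.12% of all windows. Windows of 3 members called higher are printed with these letters in capitals, from the same RefSeq build.
Rps25, chr9:44407630-44407658, plus strand: cacccattgccCCGGAAGtactctctcga
Rpl31, chr1:39367848-39367876, plus strand: ctccccgtgacCCGGAAGttgtacggcta
Mrpl33, chr5:31613937-31613965, plus strand: ccgcgcatgccCCGGAAGtagtcgttgag

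Other lists of short genes followed. Of 44 proteasome genes 42 were above 0, with a median of 0.44 that fell to 0.06 with the length correction, and of 38 NRF2 targets and metallothioneins 34 were above 0, with 0.40 and 0.12. The 32 glycolysis genes had a median of 0.27, or 0.15 corrected, with Pgk1 at 2668 against 1470.0 and Aldoc at 14.8 against 6.97. No proteasome, NRF2 or glycolysis gene was called before the correction. After it 1 NRF2 gene was called higher and 1 glycolysis gene, Pfkfb2, lower (-1.07). Bnip3, a mitophagy receptor, was called on the list of autophagy and atrophy (318 against 155, with a corrected ratio of 0.74). The 91 small nucleolar RNAs had a median of 0.53 with 12 called higher and 0 lower, and -0.09 after the correction.

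**Figure D5:**
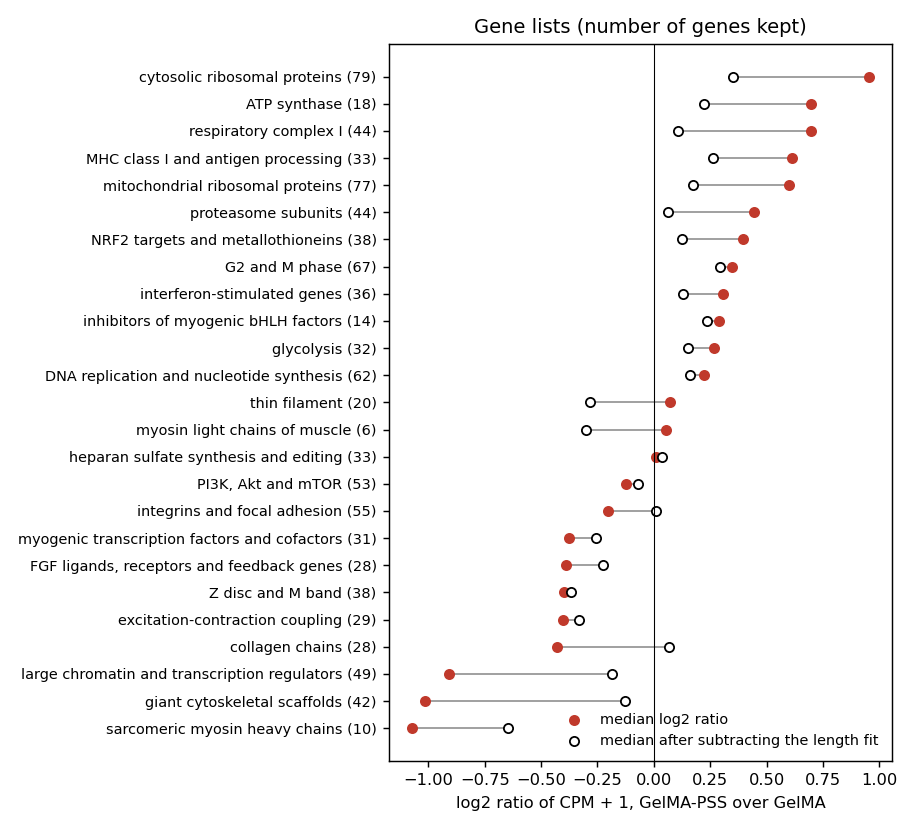
Median log2 ratio of GelMA-PSS over GelMA (x axis) for 25 gene lists (y axis, with the number of genes compared), before (filled) and after (open) the fit on transcript length was subtracted. The ribosomal protein median falls from 0.95 to 0.35, the scaffold and chromatin regulator medians rise from -1.02 and -0.91 to -0.13 and -0.18, G2 and M phase stays near 0.3, and the thin filament and light chain medians go from just above 0 to below it.

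The longest transcripts made up the other end. Of 49 large chromatin and transcription regulators 22 were called lower, 0 higher, and all lay below 0, with a median of -0.91. Kmt2d, a histone H3 lysine methyltransferase, had a CPM of 21.3 on GelMA-PSS against 114 on GelMA, with 77.6 on TCP, and its relatives Kmt2c and Kmt2a had 15.9 and 26.2 on GelMA-PSS and 50.7 and 79.3 on GelMA. Crebbp, a histone acetyltransferase, had 12.5 against 38.8. Of 42 giant cytoskeletal scaffolds 22 were called lower and 0 higher, with a median of -1.02. Dst, Plec and Macf1, which link filament systems to each other and to the membrane, had CPM values of 255, 300.2 and 465 on GelMA-PSS and 988, 1037 and 1451 on GelMA. By the corrected ratio, no gene of either list was past 2-fold, and the medians were -0.18 and -0.13.

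A further set of lower genes was noncoding or ribosomal, and the protein-coding Lars2 is given beside them. Malat1, a nuclear noncoding RNA, had a CPM of 185 on GelMA-PSS against 1344 on GelMA, with 557 on TCP. Xist, which coats the inactive X chromosome, had 167, 799 and 404, and Tsix, read from the opposite strand of the same locus, 10.4, 79.7 and 20.6. Reads of Xist and Tsix cannot be told apart without strand. Rn45s, the ribosomal RNA precursor, had 638, 2276 and 1565. The 6 genes of the rRNA class that were compared were all called lower, and their summed CPM was 1.27 on GelMA-PSS against 18.003 on GelMA, with 0.928 on TCP, so that here GelMA was the library that stood high. Gm22109, on chromosome 8 from 123606613 to 123606731, made up the largest share (0.530, 7.24 and 0.386). Lars2, the mitochondrial leucyl-tRNA synthetase, had 147, 1040 and 428, and the noncoding 4930470H14Rik 5.28, 55.1 and 16.1, the lowest ratio of all genes at -3.16. For Malat1, Xist, Tsix, Rn45s, Lars2 and 4930470H14Rik the TCP library lay between the hydrogels. After the length correction Malat1, Tsix, Lars2 and 4930470H14Rik had ratios of -2.33, -2.65, -2.70 and -3.45, and Xist, with 17946 bases, -0.95. Kcnq1ot1, with 93092 bases, went from -1.18 to 1.43. The part of these nuclear and ribosomal RNAs in the other ratios was not tested.

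Matrix genes were mixed. Of 28 collagen chains 4 were called lower and 0 higher, with a median of -0.43, or 0.07 after the length correction. Col2a1, the cartilage collagen, had 592 counts and a CPM of 6.51 on GelMA, 2 counts on GelMA-PSS and a CPM of 0.107 on TCP. The ratio of GelMA to GelMA-PSS was 590, with a 95% exact interval for counting error from 163 to 4884. Col9a1, also a cartilage collagen and below the CPM limit on both, had 77 counts on GelMA and 0 on GelMA-PSS, at least 51.2-fold lower against 3 counts. It had 0 counts on TCP too, so that for this gene GelMA was the library that stood high. The summed level of 10 osteoblast and chondrocyte markers, Col2a1 among them, was 101.07 on GelMA, 68.9 on GelMA-PSS and 81.3 on TCP, with Ibsp and Alpl at or under 3 counts on both hydrogels. Muc6 had 95 and 0 counts, at least 63.1-fold lower. The other called chains were Col13a1 (0.442 against 3.00), Col23a1 (1.20 against 3.72) and Col25a1 (2.04 against 5.51). By the corrected ratio 3 chains were called, and Col23a1 was not (-0.74). The abundant Col3a1 had 2721 against 3221 and Col1a1 99.0 against 168. Fbn1, which encodes fibrillin-1, was the gene called among 50 of basement membrane and matricellular proteins (217 against 475, with a corrected ratio of -0.17). Of 33 matrix proteases and inhibitors the receptor of urokinase, Plaur, was called higher (35.1 against 16.97, with a corrected ratio of 0.65).

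Genes of heparan sulfate were close to the median of all genes, 0.04. Of 11 heparan sulfate proteoglycans, 1 was called lower and 0 higher, with a median of -0.17. That gene was Hspg2, encoding perlecan, with a CPM of 816 on GelMA-PSS against 2043 on GelMA, with 1693 on TCP and a transcript of 14176 bases, and its corrected ratio was -0.22. Cell surface members had smaller ratios: Sdc2 had 369 against 311, Sdc1 238 against 211 and Gpc1 1241 against 1446. The 33 genes of heparan sulfate synthesis and editing had a median of 0.01, or -0.13 with CPM of the total counts, with 0 called. Ext1, a polymerase of the chain, had a CPM of 397 on GelMA-PSS and 291 on GelMA, with a ratio of 0.45 that became 1.05 with the correction for its 7663 bases, and Ndst1, which starts its sulfation, had 49.5 and 91.1.

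Genes of FGF signaling, feedback genes included, and of other heparin-binding factors and receptors were on the low side. Of 28 FGF ligands, receptors and feedback genes 5 were above 0 and 0 were called, with a median of -0.39, or -0.23 after the length correction. Spry4, an inhibitor that FGF signaling induces, had a CPM of 3.65 on GelMA-PSS and 7.55 on GelMA, Fgf10 had 4.93 and 9.17, Fgfr3 had 4.82 and 8.17, and Fgf2 had 0.690 and 1.46. Frs2, the adaptor of the receptors, had 24.9 and 44.1. Of 38 other heparin-binding factors and receptors, 2 were called lower, 0 higher, and the median was -0.24: Slit2, a guidance ligand, had 27.8 against 61.1 and Nrp2, a co-receptor of VEGF and semaphorins, 55.2 against 119.5. With length corrected for, neither was called (-0.50 and -0.65). Areg, an EGF family ligand with a heparin-binding stretch, had 6.79 against 3.21.

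In the insulin and IGF list, 2 of 19 genes were called lower and 1 higher, with a median of -0.30. Igfbp2, a binding protein for IGFs, had a CPM of 596 on GelMA-PSS against 239 on GelMA, with 143 on TCP. Igf1r, the receptor, had 27.98 against 59.5 and Cbl, a ubiquitin ligase, 7.36 against 19.8, and their transcripts of 11409 and 11372 bases left corrected ratios of -0.14 and -0.40. The ratio of Igfbp2, with 1307 bases, went from 1.32 to 0.89, so that 0 genes of the list were called after the correction. The ligand Igf1 had 1.58 on GelMA-PSS against 2.18 on GelMA, with 2.70 on TCP. Downstream, 3 of 53 genes of PI3K, Akt and mTOR were called lower and 0 higher, with a median of -0.12: Prkaa2, a catalytic subunit of AMP-activated kinase, had 6.48 against 15.2, Pik3r1, the regulatory subunit of PI3K, 23.2 against 51.0 and Deptor, an inhibitor of mTOR, 77.7 against 158. With transcripts of 7969, 7113 and 8547 bases, none of Prkaa2, Pik3r1 and Deptor was called after the length correction (-0.49, -0.57 and -0.33). Mtor had 69.2 against 122.5, with a log2 ratio of -0.81 and a corrected one of -0.13.

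Of 29 Wnt ligands, receptors and antagonists 6 were above 0 and Lgr6 was called lower (1.63 against 4.95), with a median of -0.44, or -0.16 corrected. The corrected ratio of Lgr6 was -0.69. Among 40 cytoplasmic and nuclear components, 4 were called lower and 1 higher, Apc2, and after the length correction 1 lower and 1 higher. Gsk3b, the kinase that marks β-catenin for decay, had 52.3 against 99.5, short of 2-fold (-0.91), and with the transcript of 1750 bases chosen here its corrected ratio was -1.203. Axin2, a Wnt target, had 0.972 on GelMA-PSS and 2.24 on GelMA, close to the CPM limit. Lrp5 had 88.4 against 110.1, and Ctnnb1, which encodes β-catenin, 472 against 521. Integrin and focal adhesion genes had a median of -0.20 with 3 of 55 called lower, 0 higher and 0.01 after the correction. The called genes were Pak3, Tln2 and Mylk, with transcripts of 8657, 8330 and 7824 bases, and none was called after the correction (-0.53, -0.45 and -0.48). Itgb1, the β1 integrin, had 1113 against 1128 and Ptk2, focal adhesion kinase, 103 against 113. Npnt, the integrin ligand nephronectin, had 535 against 699.8 and Cav3, muscle caveolin, 41.3 against 47.2. With the length correction, the log2 ratios of Npnt and Cav3 went from -0.39 and -0.19 to -0.66 and -0.67. Those of Itgb1 and Ptk2 went from -0.02 and -0.14 to 0.08 and 0.09. Klf4 had 131 against 123.

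Of 42 genes of TGF-β, activin and BMP, 7 were above 0 and 35 below, with a median of -0.39. The median was -0.19 after the length correction, again with 7 above 0 and 35 below. Bmpr2 and Ltbp2 were called lower (35.6 against 82.9 and 117 against 246) and Id3 higher. Of 31 genes of YAP, TAZ and TEAD, Amotl1 (89.1 against 212) and Tead1 (60.6 against 133) were called lower and 0 higher. With length corrected for, Bmpr2, Ltbp2 and Id3 were not called (-0.17, -0.56 and 0.79). Amotl1, a scaffold that binds YAP, had a corrected ratio of -1.27 and Tead1 of -0.31. Among 34 chemokine and NF-kB genes, Il33 was called higher (176 against 87.6) and Ptgs2, the inducible cyclooxygenase, lower (20.5 against 43.6). Neither was called after the length correction (0.89 and -0.85). The chemokines Cxcl1 and Ccl5 had CPM values of 18.2 and 1.37 on GelMA-PSS, 9.56 and 0.363 on GelMA and 1.47 and 0.0493 on TCP, with log2 ratios of 0.86 and 0.80 and corrected ones of 0.32 and 0.12.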

How the data were processed

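For every library the authors deposited unnormalized read counts by gene symbol. Per the labels, processing named TopHat, edgeR, mm10 and hg19 with no role given. The labels name a SMARTER kit and the study's methods a TruSeq kit and paired-end reads, and whether the counting used strand is not given in the sources used here. The files hold 23282 lines, and 35 repeated symbols were summed. CPM was computed with TMM factors (edgeR 4.0.16, R 4.3.3) from all 3 libraries (1.02 for TCP, 1.04 for GelMA, 0.943 for GelMA-PSS), with a pseudocount of 1 and a limit of 1 CPM in either library. With 1 library per substrate nothing was tested, and intervals cover counting error only.

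Lengths and positions are those of GENCODE vM21 (GRCm38), taking the longest coding sequence of the basic set. A corrected ratio depends on the transcript chosen. The copies Dynlt1a and Dynlt1b had log2 ratios of 1.04 and 1.04, but corrected ones of 1.06 and 0.44 with 3321 and 771 bases. Of the symbols, 22197 matched directly, 650 by an older name and 391 not at all. The correction subtracted a loess fit (span 0.3, statsmodels 0.14.6) on log2 length. The scripts (Python 3.11.15) were checked on simulated data.

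Genes were named by rule: the 15 largest and 15 smallest ratios, the 10 and 10 by corrected ratio, the 3 most moved of each of 63 lists, genes named by the study, and genes at or under 3 counts in 1 library with the 5 highest CPM in the other, leaving out some that repeat one another. Serpinb6b, the Stmn, S100, Ly6, Prl2c and Dynlt1 families, Myl12a, Myl12b, Gap43, Nefl, Reps2, Rn45s, Mhrt and Mef2d, Mad2l1, Wdr18, Bhlhe40, Zeb1 and several list members below the first 3 were named after their values were seen. The comparison and the lists were chosen with earlier results of these data known.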

Additional observations from a re-analysis of the deposited data

How the results depend on the processing

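No paired analysis was possible because each substrate has 1 library, and for the same reason no library could be left out. The 233 genes higher and 307 lower became 120 and 506 with CPM of the total counts, 140 and 158 with a pseudocount of 5, 106 and 164 with the fit on length, 87 and 160 with fits on length and GC content, and 1447 and 1422 at a 1.5-fold threshold. The other scalings, filters, the smaller pseudocount and the other treatment of repeated symbols moved both counts by less than 1.5 times. Spearman's rho with length was -0.51 with no CPM limit, -0.68 with the limit in both libraries and -0.72 with a limit of 5. Of 142 named genes past 2-fold, 121 stayed past it in the same direction with CPM of the total counts and 104 with a pseudocount of 5, and 53 of the 139 with a length did so after the fit on length. Of 56 list medians, 11 changed sign with the fit on length and 10 with both fits. Among them were thin filament (0.07 to -0.28 and -0.26) and muscle light chains (0.06 to -0.30 and -0.26), whose medians started within 0.1 of 0. Of medians further from 0, the direction changed for integrins and focal adhesion (0.00997 with the fit on length), heparan sulfate proteoglycans (0.0439 with both fits), collagen chains (0.0688 and 0.0774 with the fit on length and with both fits), matrix proteases (0.0483 and 0.0550) and clustered histone genes (-0.24 and -0.10). Of named genes past 2-fold, it changed for Kcnq1ot1 (1.43 and 1.29) and Ttn (0.30 and 0.26). Named genes within 2-fold also changed sign with the fit on length, among them Myog (0.21 to -0.15) and Ptk2 (-0.14 to 0.09). With CPM of the total counts, 10 of 56 list medians changed sign. The cause was not tested. Depth limits the genes near 3 counts, and the lack of a second library limits every ratio.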
